A study of Nothobranchius furzeri with 39 samples.

Results

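The genes atf4b (LOC107376364) and atf5b (LOC107380766) of the turquoise killifish Nothobranchius furzeri are 2 of the 25099 genes counted in brain and liver of fish with mutations in genome-stability genes. They were chosen from measured values as stress factors of the brain, and both are present in the 3 deposited count tables. In the 2-month brain their levels, and differences from WT or from liver, are therefore described without a test. Liver, sex, the relation of brain to liver and the 3-month fish were tested. Where such a test used the 2-month brain values, its p-values are descriptive. RefSeq's annotation of NfurGRZ-RIMD1, consulted for gene names alone, puts atf4b on chromosome 12 with 1 transcript and atf5b on chromosome 13 with 3 transcripts. Each has a paralog, atf4a on chromosome 6 and atf5a on chromosome 10.

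ATF4 and ATF5 are basic leucine zipper transcription factors of the integrated stress response. In mammals, kinases such as PERK and GCN2 phosphorylate the initiation factor eIF2 when proteins misfold or amino acids run short, general translation falls, and the ATF4 and ATF5 messages are translated more through upstream open reading frames. ATF4 then switches on genes for amino acid synthesis and transport, redox balance and, with CHOP (ddit3), cell death. ATF5 is linked to the mitochondrial stress response and is known from neural progenitors and olfactory neurons. Because much of this control acts on translation, messenger RNA levels report only part of the activity of either factor.

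The study compared WT fish with ATM mutant and ATMcGAS double mutant fish at 2 months, in brain and liver, with 2 males and 2 females per genotype (for ATM mutant liver 1 male and 2 females were analysed here). ATM is the kinase that signals DNA double-strand breaks, and cGAS is the sensor of cytosolic DNA upstream of STING. At 3 months, 3 Blm1 mutant male livers were set beside 4 WT male livers (BLM is a DNA helicase), and brains of 3 female and 2 male cGAS mutant fish beside 1 male and 1 female WT. The labels name the mutated genes; the alleles and the relation of the fish to each other are not given in the sources used here, so p-values measure only the spread between these samples.

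The 2-month libraries held 18.6 to 39.3 M counts (M, 1000000 counts) in brain and 25 to 36.8 M in liver. Those at 3 months held 11 to 17.3 M in brain and 19.5 to 24.1 M in liver, over the 16383 genes that their tables list. Tissue labels were checked by markers: neuron markers summed to 7075 to 7896 CPM (counts per 1000000 counts) in the 2-month brains and to 1.92 to 11.1 CPM in the livers. Counts of mb21d1, the gene of cGAS, were 5 to 14 in WT, ATM mutant and the other double mutant brains, so they did not tell the genotypes apart, but 131 in the brain and 212 in the liver of the male labelled double mutant 4; the other double mutant livers held 0 or 1 and the WT male liver 1 held 271. The labels were kept, and the main differences and ratios that include the fish labelled double mutant 4 are given with and without it. The lowest count of either gene in any library was 433.

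In brain at 2 months, atf4b was lower in both mutant genotypes than in WT. Levels are in CPM scaled with TMM factors (trimmed mean of M-values), and the mean was 236 ± 19.02 CPM in WT (SD, n = 4), 189 ± 13.03 CPM in ATM mutants (n = 4) and 176 ± 12.0 CPM in double mutants (n = 4). The WT brains measured 256 and 223 CPM in the males and 216 and 247 CPM in the females. ATM mutant females had 194 and 186 CPM and males 173 and 204 CPM. Every one of the 8 mutant brains lay under the lowest WT brain, and the ranges of the ATM and double mutants overlapped. Double mutant males had 160 and 181 CPM and females 188 and 175 CPM.

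As log2 fold changes, atf4b differed from WT by -0.32 (SE 0.083) in ATM mutant brains and by -0.42 (SE 0.083) in double mutant brains, and the double mutants differed from the ATM mutants by -0.10 (SE 0.083). Without double mutant 4 the last 2 values were -0.44 and -0.13. The first value corresponds to 0.802 and the second to 0.747 times the WT level. The difference from WT had the same sign in both sexes: -0.35 in males and -0.28 in females for the ATM mutants, and -0.49 and -0.35 for the double mutants. These contrasts were part of what singled the gene out, and for that reason no p-value is given. All WT brains exceeded all ATM mutant brains for 2.67% of the 20273 genes fitted, all double mutant brains for 1.03%, and all 8 mutant brains for 0.281% of them. The edgeR quasi-likelihood test with Benjamini-Hochberg adjustment called 0.00987% of genes for ATM mutants against WT and 0.00493% for double mutants against WT.

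atf5b followed another order in the same brains: lowest in ATM mutants and highest, on average, in double mutants. Its mean was 76.8 ± 6.72 CPM in WT (SD, n = 4), 63.2 ± 7.82 CPM in ATM mutants (n = 4) and 83.8 ± 12.7 CPM in double mutants (n = 4). The WT males had 67.3 and 82.1 CPM and the WT females 80.9 and 76.7 CPM. The ATM mutant females had 65.7 and 72.7 CPM and the males 54.5 and 59.7 CPM. The double mutant females had 96.8 and 87.1 CPM and the males 66.4 and 84.8 CPM. All 3 ranges overlapped. Double mutant 1, at 66.4 CPM, lay within the range of the ATM mutants and below the whole WT range, while the other 3 double mutants lay above all WT brains.

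The log2 fold change of atf5b was -0.29 (SE 0.095) for ATM mutants against WT, 0.12 (SE 0.095) for double mutants against WT and 0.41 (SE 0.095) for double mutants against ATM mutants. Without double mutant 4, whose microglia and leukocyte markers summed to 891 CPM where the other brains had 157 to 252 CPM, the last 2 values were 0.06 and 0.35. Sequencing depth moved with it: the 3 double mutants with high atf5b were sequenced to over 25 M counts, and double mutant 1 to under 25 M. Among brains over 25 M counts the mean log2 difference between double and ATM mutants was 0.71 (n = 3 and 1), and among those under 25 M it was 0.01 (n = 1 and 3). The 18 alternatives for this difference, among them a fit with depth range as covariate, ran from 0.013 to 0.712. Depth range and genotype were unevenly crossed, and the part of depth in this difference was not tested. For atf4b against WT the difference stayed negative in both depth ranges, between -0.30 and -0.58.

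**Figure D1:**
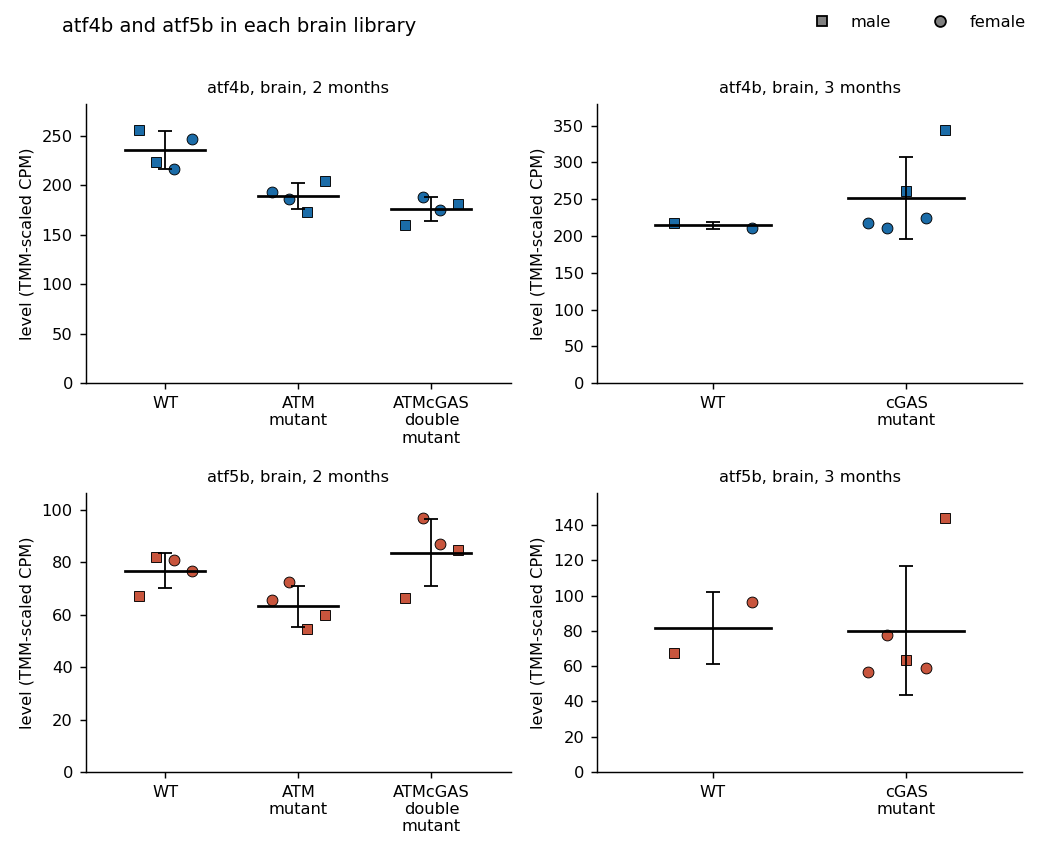
Levels of atf4b (top) and atf5b (bottom) in each brain library at 2 months (left) and 3 months (right), in TMM-scaled CPM on axes that start at 0; squares are males, circles females, bars the group mean and SD. The 4 WT brains at 2 months lie at 216 to 256 CPM for atf4b, above all 8 mutant brains, while the groups of atf5b overlap and 1 cGAS mutant male stands above the other 3-month brains for both genes with its TMM factor of 0.639, but not without scaling factors.

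The ratio of the genes, built from the same brain values and so also given without a test, was higher in double mutants. Counts of atf5b per 100 counts of atf4b, a ratio that needs no scaling between libraries but is not corrected for transcript length, averaged 32.9 ± 5.26 in WT brains (SD, n = 4), 33.5 ± 4.20 in ATM mutant brains (n = 4) and 47.4 ± 4.38 in double mutant brains (n = 4). The double mutants ranged from 41.5 to 51.6, all above the 26.3 to 39.1 of the other 8 brains, and averaged 47.6 without double mutant 4. How many other pairs of genes separate these brains likewise was not counted, so the separation cannot be called particular to this pair. In liver the order was the opposite, with 46.5 ± 3.62 in WT (SD, n = 4), 41.2 ± 7.83 in ATM mutants (n = 3) and 32.8 ± 9.33 in double mutants (n = 4). Liver ratios ran from 21.7 to 43.1 in double mutants and from 41.1 to 48.9 in WT, so those ranges overlapped. Double mutant 4 had the lowest liver ratio, 21.7, and without it the double mutants averaged 36.6.

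**Figure D2:**
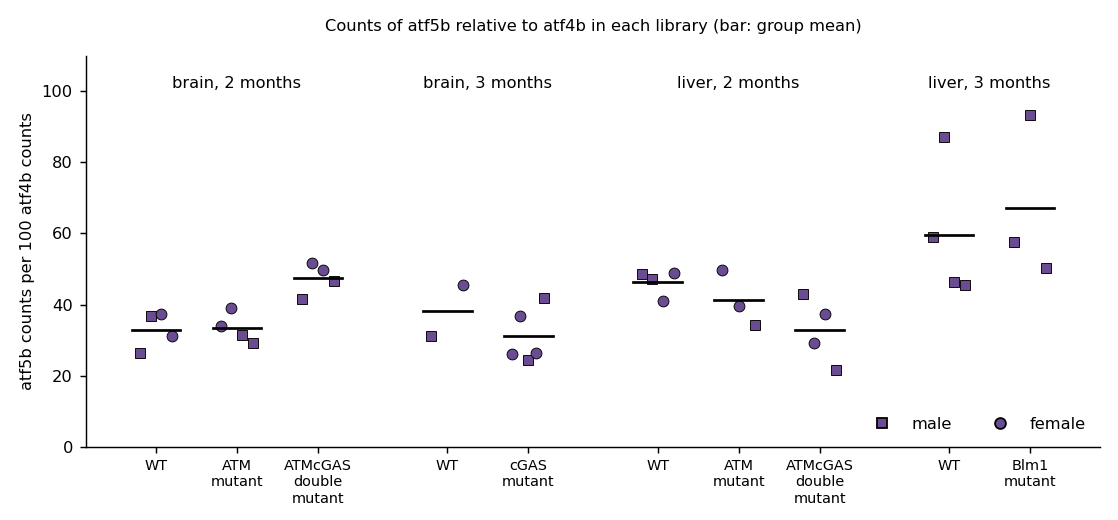
Counts of atf5b per 100 counts of atf4b in each of the 37 libraries, grouped by tissue, age and genotype; squares are males, circles females, and the bar is the group mean. The double mutant brains sit at 41.5 to 51.6, above the other 2-month brains, and the 3-month livers spread most, from 45.4 to 93.4.

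Both paralogs had their lowest mean in ATM mutants, as atf5b did. Of the paralogs only atf5a separated ATM mutants from WT without overlap. atf4a, the closest relative of atf4b, measured 266 ± 17.6 CPM in WT, 246 ± 14.3 CPM in ATM mutant and 256 ± 21.3 CPM in double mutant brains (SD, n = 4 each), with overlapping ranges. atf5a, the relative of atf5b, measured 49.0 ± 1.70 CPM in WT, 38.6 ± 4.01 CPM in ATM mutant and 47.3 ± 5.16 CPM in double mutant brains. The ATM mutants had 39.6, 43.8, 34.4 and 36.8 CPM of atf5a and the WT brains 47.1 to 50.9 CPM, with no overlap, as for 2.67% of all genes. Its log2 fold change was -0.35 (SE 0.078), which edgeR did not call (adjusted p = 0.540) and DESeq2's Wald test did (adjusted p = 0.0387), beside 0.16% of all genes called by DESeq2. How reads shared by paralogs were counted is not given in the sources used here, so the split between a and b copies carries that uncertainty.

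No gene on the pathway lists passed the edgeR threshold in the 2-month brain. The lists, 17 eIF2alpha kinases and regulators, 44 bZIP partners and related factors, 55 ATF4 target genes, 16 mitochondrial stress response genes and 23 ER chaperone and ATF6-XBP1 genes, held 0 calls in either direction for ATM mutants, double mutants or their difference, by edgeR and by DESeq2. Few genes were called at all: 0.00987%, 0.00493% and 0.0% of 20273 genes by edgeR and 0.16%, 0.102% and none by DESeq2, so 0 calls in lists of this size say little about them. At an unadjusted p under 0.05, 1 ATF4 target was higher and 2 were lower in ATM mutants, against 8.79% of all genes in either direction, and 3 were higher and 5 lower in double mutants, against 5.40% of all genes. The median log2 fold change of the ATF4 targets was 0.01 in ATM mutants and -0.13 in double mutants, where that of all genes was 0.00. In double mutants 41 of the 55 targets lay below WT and 14 above, and in ATM mutants 25 lay below and 30 above. Lists of 18 immediate-early, 11 glucocorticoid-induced and 14 p53 target genes, which mark handling, stress hormones and DNA damage, also held 0 calls by either tool.

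Single pathway genes are given as values, since none passed. The stress-induced factor ddit3 (CHOP) had 44.5 to 59.6 CPM in ATM mutants and 60.3 to 64.1 CPM in WT, without overlap, as for 2.67% of all genes (-0.25 on the log2 scale, SE 0.088, adjusted p = 0.540), and 53.7 to 72.2 CPM in double mutants. cebpg, a dimer partner of ATF4, averaged 54.5 ± 4.17 CPM in WT (SD, n = 4), 48.2 ± 3.71 CPM in ATM mutants (n = 4) and 46.3 ± 4.70 CPM in double mutants (n = 4). The cystine transporter slc7a11 stood at 4.54 ± 1.66 CPM in WT, 6.07 ± 0.834 CPM in ATM mutants and 6.76 ± 0.591 CPM in double mutants. The kinases eif2ak3 (PERK) and eif2ak4 (GCN2) differed from WT by log2 fold changes between -0.02 and 0.04. chac1, a glutathione-degrading enzyme induced by ATF4, measured 389 ± 74.9 CPM in WT and 334 ± 76.7 CPM in double mutants, and asns, asparagine synthetase, 31.5 ± 16.3 CPM and 20.8 ± 6.48 CPM. The ATM mutant means of chac1 and asns, and group means of the other pathway genes, are not given here. WT male 1 was highest for 8 of 19 pathway genes in these brains, with and without scaling factors, and double mutant 4 for 6. Among the 8 were asns (55.2 CPM, median of all brains 26.1 CPM), chac1 (485 CPM) and cebpg (60.3 CPM). The 6 were eif2ak4, ppp1r15b, atf3, ddit4, slc3a2 and cebpb (50.2 CPM, next brain 9.39 CPM). The share of all genes highest in either library is not given, so these counts cannot be called particular to the pathway. Without WT male 1 the log2 fold changes of atf4b against WT were -0.27 in ATM mutants and -0.37 in double mutants.

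Oligodendrocyte and astroglia markers tended higher in the mutant brains. The 11 oligodendrocyte genes summed to 4558 to 6887 CPM in WT, 6365 to 10020 CPM in ATM mutants and 5260 to 9238 CPM in double mutants, while neuron markers spanned 7131 to 7589 CPM in WT and 7075 to 7896 CPM in the mutants. Astroglia and radial glia markers summed to 3995 to 4958 CPM in WT, 4951 to 5555 CPM in ATM mutants and 4679 to 6279 CPM in double mutants. Of 12 microglia and leukocyte markers tested, 7 lay higher in ATM mutants and 11 in double mutants. The double mutant count includes double mutant 4, whose microglia and leukocyte markers summed to 891 CPM. The other double mutants had 182 to 238 CPM and WT 157 to 221 CPM. All 11 oligodendrocyte genes were higher in ATM mutants than in WT and 9 reached an unadjusted p under 0.05, beside 8.79% of all genes. After adjustment 0 were called, beside 0.00987% of all genes by edgeR and 0.16% by DESeq2. The part of these markers in the levels of atf4b and atf5b was not tested. In whole-tissue RNA, a change in the number of cells of a type and a change in RNA per cell cannot be told apart.

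Ranked over all 12 brains, the genes with a symbol whose log2 CPM was most like that of atf4b were abcb10 (a mitochondrial transporter, r = 0.87), si:ch211-266g18.10 (r = 0.85), cebpg (r = 0.85), nmrk2 (a nicotinamide riboside kinase, r = 0.85) and rtn2b (r = 0.84), among 16773 genes. Part of this likeness is the WT-to-mutant step: si:ch211-266g18.10 averaged 21.6 CPM in WT, 3.50 CPM in ATM mutants and 2.11 CPM in double mutants, and nmrk2 3.80, 1.87 and 2.07 CPM. After removal of the genotype means r fell to 0.50 for si:ch211-266g18.10, to 0.58 for nmrk2 and to 0.72 for cebpg. atf4a showed the reverse, with r = 0.67 to atf4b over all brains and 0.91 within genotypes. atf4b and atf5b themselves were nearly unrelated, at r = 0.07 and, within genotypes, 0.24. These are descriptions over libraries that share genotype, depth and dissection.

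For atf5b the nearest genes were si:ch211-199f5.1 (r = 0.98), the transcription factor tfap2b (r = 0.97), csgr08h3orf58 (r = 0.95), the POU factor pou4f4 (r = 0.95) and the forkhead factor foxp2 (r = 0.95). Here the likeness hardly depended on genotype, with r between 0.90 and 0.96 within genotypes. tfap2b averaged 34.7 CPM in WT, 29.7 CPM in ATM mutants and 37.9 CPM in double mutants, and foxp2 98.6, 88.4 and 104 CPM. That is the order of atf5b, but these genes were picked for likeness to atf5b over the same brains. The shared order is therefore no separate evidence, and the part of sequencing depth in it was not tested. atf5a had r = 0.85 to atf5b.

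Sex made little difference to atf4b in brain: 6 males averaged 200 ± 35.8 CPM and 6 females 201 ± 26.4 CPM (SD), a log2 difference of -0.004 (SE 0.067; quasi-likelihood test, adjusted p = 0.987). atf5b averaged 69.1 ± 12.0 CPM in males and 79.99 ± 10.96 CPM in females, and the female mean was the higher in each of the 3 genotypes. The log2 fold change of -0.20 for males against females (SE 0.078) had an unadjusted edgeR p of 0.0235 and did not pass the adjustment over 19883 genes (adjusted p = 0.556), of which 0.00503% were called. The two-sided exact permutation test over the 12 brains, which took no account of genotype, gave p = 0.128. These tests used the brain values from which the genes were chosen, so their p-values are descriptive. Within the brains under 25 M counts the mean log2 difference was -0.015 and within those over 25 M -0.32.

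In the 3-month brains neither gene differed between cGAS mutants and WT by the test, and 1 mutant library stood high for both. atf4b had 217 and 211 CPM in the WT male and female. In the cGAS mutants it had 217, 211 and 224 CPM in the females, around the WT values, and 261 and 345 CPM in the males, above them. atf5b had 67.5 and 96.3 CPM in the WT male and female, 56.8, 77.7 and 59.0 CPM in the mutant females and 63.5 and 144 CPM in the mutant males. With TMM scaling the highest value of both genes came from the male 3_m. Without scaling factors it had 220 CPM of atf4b, below both WT brains at 273 and 276 CPM, and 91.9 CPM of atf5b, below the WT female at 124.5 CPM. The log2 fold changes were 0.24 (SE 0.21, edgeR adjusted p = 0.946) for atf4b and -0.07 (SE 0.40, adjusted p = 1.00) for atf5b, beside 0.463% of 13825 genes called. Without 3_m they were 0.06 and -0.46. An exact permutation test of 5 against 2 brains cannot go below p = 0.0476 and gave 0.476 and 0.857.

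These values depend on scaling. TMM factors were 1.27 and 1.29 in the WT brains and 0.639 to 1.13 in the mutants, and with library totals alone the median log2 fold change of all genes was -0.52, that of atf4b -0.30 and that of atf5b -0.59. The libraries also differed in cell type markers. The 4 intestine and exocrine pancreas markers in the table summed to 136 and 355 CPM in the WT brains and to 6.20 to 16.7 CPM in the mutants; fabp2 and cdx1b, both known from the intestine, were called lower in mutants (adjusted p = 0.00362 and 0.00465). Microglia and leukocyte markers summed to 1225 and 2167 CPM in WT and 364 to 916 CPM in the mutants. The part of these differences in the levels of atf4b and atf5b was not tested.

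The same male 3_m was highest for 9 of the 13 other pathway genes measured in these brains with TMM scaling, and for 4 of them (atf3, ddit3, asns and chac1) without scaling factors. The TMM factor of 3_m, 0.639, was the lowest of the 7 brains. The share of all genes highest in 3_m is not given, so these counts cannot be called particular to the pathway. In 3_m atf3, a stress-induced bZIP factor, reached 99.2 CPM, against 18.1 CPM in the next brain. ddit3 stood at 144 CPM against 60.5 CPM, chac1 at 2093 against 884 CPM, and atf4a at 781 against 472 CPM. Without scaling factors atf3 was at 63.3 against 23.0 CPM and chac1 at 1337 against 723 CPM, while atf4a was at 499 CPM in both 3_m and the WT male. asns was at 184 CPM against 130 CPM in the next brain and a median of 47.3 CPM. atf5a, ppp1r15b, ddit4 and slc7a11 were not highest there. Neuron markers of this library summed to 1681 CPM, the lowest of the 7 brains, where the others had 3028 to 5598 CPM. Because 3_m is a single library, this pattern carries no test. For cGAS mutants against WT as groups, with 3_m and TMM scaling, 31 of 41 ATF4 targets tested lay higher and 10 lower. Their median log2 fold change was 0.45 beside 0.02 for all genes, and edgeR called 0 of them. At an unadjusted edgeR p under 0.05, 4 were higher and 1 lower, beside 8.39% of all genes. DESeq2 called 2 higher and 1 lower, beside 4.32%. With library totals alone the median of all genes was -0.525. Values of the list without 3_m or without scaling factors are not given.

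**Figure D3:**
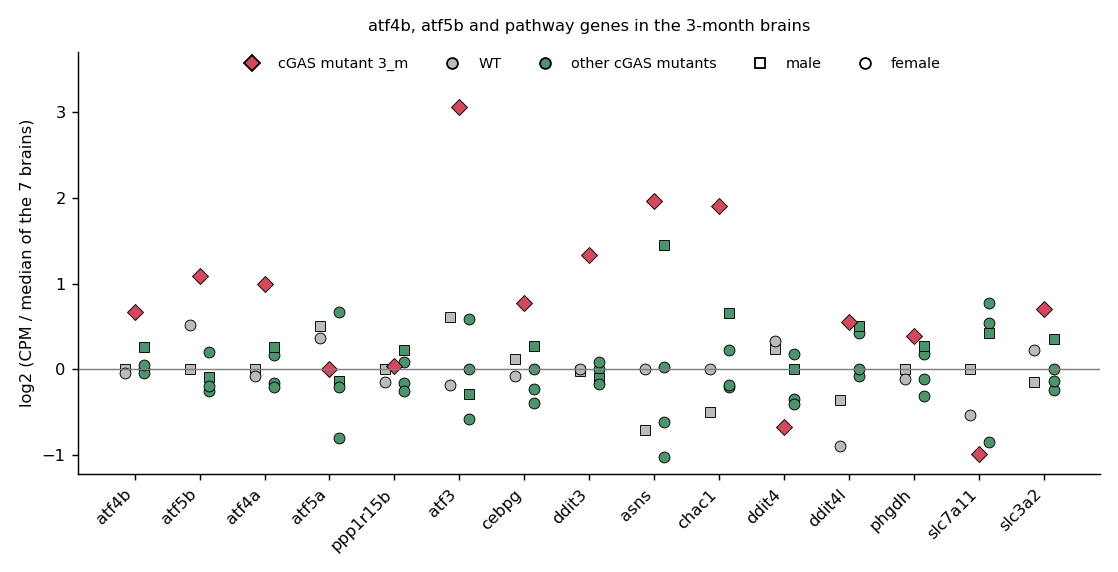
Levels of atf4b, atf5b and 13 pathway genes in the 7 brains at 3 months, as log2 of the CPM over the median of the 7 brains; diamonds mark cGAS mutant 3_m, grey symbols the WT brains and green symbols the other cGAS mutants (squares male, circles female). With TMM scaling the diamond is highest for atf4b, atf5b and 9 of the 13 other genes (4 of 13 without scaling factors, and then for neither atf4b nor atf5b), with the widest gap at atf3 (99.2 against 18.1 CPM). The share of all genes highest in 3_m is not given.

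In liver at 2 months no genotype contrast of either gene passed the test. atf4b averaged 49.3 ± 11.3 CPM in WT (SD, n = 4), 47.9 ± 6.25 CPM in ATM mutants (n = 3) and 70.9 ± 22.8 CPM in double mutants (n = 4). WT males had 36.1 and 45.6 CPM and WT females 63.0 and 52.3 CPM. ATM mutant females had 41.5 and 48.3 CPM and the male 53.9 CPM. Double mutant males had 56.6 and 104.5 CPM and females 66.0 and 56.5 CPM, all above the ATM mutants and overlapping with WT. The highest, 104.5 CPM, was double mutant 4.

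The log2 fold change of atf4b was 0.52 (SE 0.25) for double mutants against WT, with an unadjusted edgeR p of 0.0619 and an adjusted p of 0.282, beside 0.662% of 16174 genes called. Against ATM mutants it was 0.56 (SE 0.27, adjusted p = 0.462), beside 0.0433% called and 7.12% of genes with every double mutant liver above every ATM mutant liver. For ATM mutants against WT it was -0.04 (SE 0.27, adjusted p = 0.984, 95% interval -0.56 to 0.48), with 0 genes called by edgeR, 116 by DESeq2 and 1621 at an unadjusted p under 0.05. Without double mutant 4 the first 2 values were 0.28 and 0.32. With library totals alone the first was 1.05 (adjusted p = 0.0529), where the median of all genes was 0.48. The exact permutation tests, which cannot go below p = 0.0286 here, gave p = 0.114 for double mutants against WT and p = 0.0857 against ATM mutants. In brain the double mutants lay below WT for the same gene; the difference between the tissues was not tested.

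With TMM scaling atf5b passed the test in no contrast of liver genotypes, and the ranges overlapped. It averaged 22.6 ± 3.93 CPM in WT (SD, n = 4), 19.4 ± 1.084 CPM in ATM mutants (n = 3) and 21.9 ± 2.16 CPM in double mutants (n = 4). WT males had 17.5 and 21.6 CPM and WT females 25.9 and 25.5 CPM. The ATM mutants had 20.6, 19.1 and 18.5 CPM, and the double mutants 24.4, 19.3, 21.1 and 22.7 CPM. The log2 fold change against WT was -0.23 in ATM mutants (SE 0.16, edgeR adjusted p = 0.661, 95% interval -0.54 to 0.08). In double mutants it was -0.04 (SE 0.15, adjusted p = 0.906, 95% interval -0.33 to 0.25). With library totals alone these log2 fold changes were 0.04 and 0.44, where the medians of all genes were 0.22 and 0.48.

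Over the 11 livers, among 11336 genes, the genes with a symbol most like atf4b were herc4 (r = 0.94), vti1a (r = 0.94), uap1 (r = 0.92), psmd5 (r = 0.91) and dnajb14 (r = 0.88). Those most like atf5b were nrbp1 (r = 0.94), pals1a (r = 0.93), rab1ba (r = 0.92), spag9 (r = 0.90) and brwd3 (r = 0.89). None of them was among the nearest genes in brain. As in brain, atf4a followed atf4b more closely within genotypes (r = 0.87) than over all livers (r = 0.29). These are descriptions over libraries that share genotype and depth.

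With TMM scaling WT females stood above WT males for both genes, and the mutant differences leaned apart between the sexes without passing the test. Without scaling factors this order did not hold: WT females had 44.4 and 33.1 CPM of atf4b against 40.5 and 48.1 CPM in males, and 18.3 and 16.2 CPM of atf5b against 19.7 and 22.8 CPM. atf4b in double mutants differed from WT by a mean log2 of 0.92 in males and 0.09 in females, a difference of 0.89 (SE 0.42, edgeR adjusted p = 0.36). The male value rests on double mutant 4: without it the remaining male differed from WT males by 0.48, and the difference between the sexes was 0.39. For atf5b the values were 0.27 and -0.35, a difference of 0.61 (SE 0.22, unadjusted p = 0.023, adjusted p = 0.232), beside 0.420% of genes called. For ATM mutants the male minus female difference was 0.76 for atf4b and 0.30 for atf5b (-0.31 with library totals alone). It rests on 1 ATM mutant male liver, whose spread was taken from the other groups, so its p-values are left out. Over all genotypes males and females differed by 0.03 (SE 0.21, adjusted p = 0.946) for atf4b and -0.09 (SE 0.13, adjusted p = 0.701) for atf5b, beside 2.84% of 15456 genes called. Liver TMM factors ran from 0.634 to 1.42, and the WT females had the lowest, 0.705 and 0.634. Hepatocyte markers summed to 42000 and 48640 CPM in the WT females, the low end of that sum, against 195000 and 221700 CPM in WT males. The part of factors and markers in the sex pattern was not tested.

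**Figure D4:**
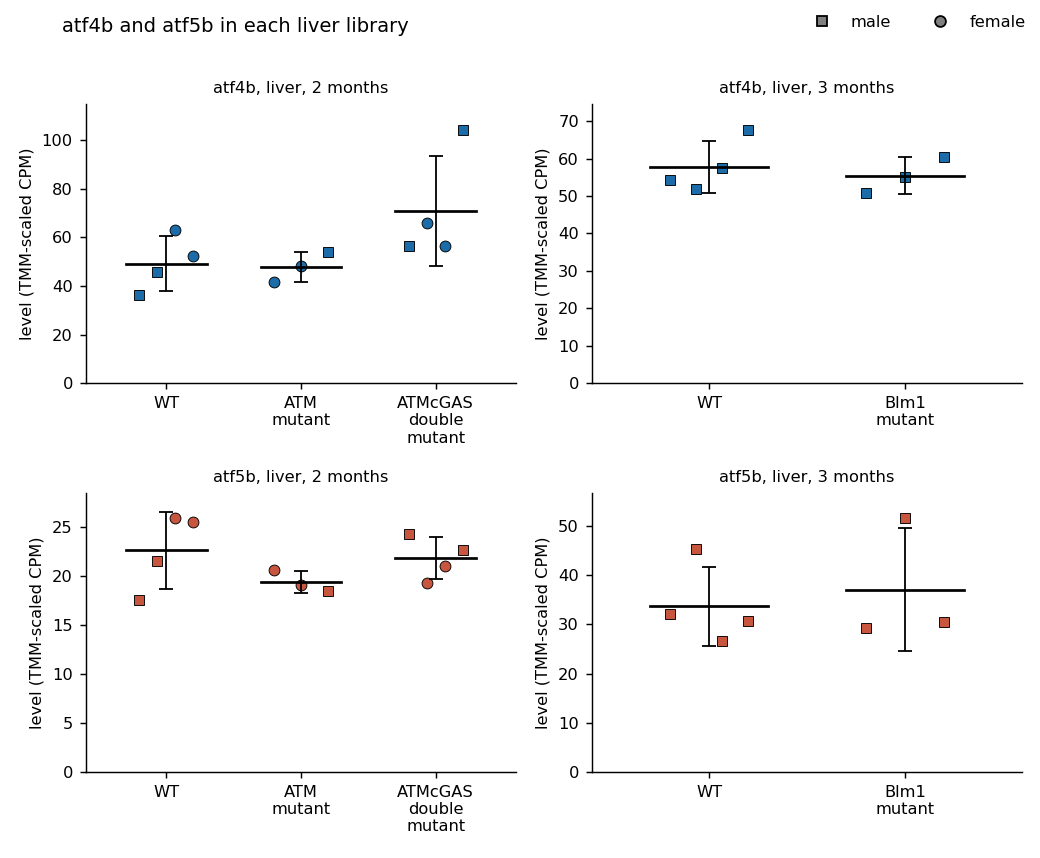
Levels of atf4b (top) and atf5b (bottom) in each liver library at 2 months (left) and 3 months (right, males only), in TMM-scaled CPM; squares are males, circles females, bars the group mean and SD. Double mutant 4 has the highest atf4b, 104.5 CPM, and the 3-month groups overlap for both genes.

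Among pathway genes of the double mutant liver, 3 of the listed genes rose against WT by edgeR. mthfd2, a mitochondrial folate enzyme on the ATF4 target list, was 8.62 ± 1.28 CPM against 3.22 ± 0.725 CPM in WT (SD, n = 4 each; log2 fold change 1.42, SE 0.20, adjusted p = 0.0359). timm17a, a mitochondrial import subunit, was 26.7 ± 2.42 CPM against 12.9 ± 2.02 CPM (1.06, SE 0.15, adjusted p = 0.0359), and the bZIP factor mafbb 12.9 ± 1.76 CPM against 4.70 ± 1.38 CPM (1.44, SE 0.22, adjusted p = 0.0385). Of 54 ATF4 targets tested, 1 was called higher and 0 lower by edgeR, beside 0.445% and 0.216% of all genes, and 7 higher and 1 lower by DESeq2, which called 7.46% of all genes in either direction. With only the 2 groups compared in the fit, edgeR called 0 genes. Their median log2 fold change was 0.29, where that of all genes was 0.01, but with library totals alone the median of all genes moved to 0.48. In double mutant 4 asns reached 120 CPM against 10.7 to 12.1 CPM in the other double mutants and ddit3 14.5 CPM, and it held the highest value of 7 (11 without scaling factors) of 17 pathway genes over the 11 livers. The share of all genes highest in that liver is not given.

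Neither gene passed the test between Blm1 mutant and WT male livers at 3 months. atf4b had 55.2, 50.7 and 60.4 CPM in the mutants and 57.4, 67.8, 54.4 and 52.0 CPM in WT, or -0.06 on the log2 scale (SE 0.14; edgeR, adjusted p = 0.942, 95% interval -0.34 to 0.21). atf5b had 51.6, 29.3 and 30.5 CPM in the mutants and 26.7, 30.8, 32.0 and 45.3 CPM in WT, at 0.14 (SE 0.25, adjusted p = 0.921, 95% interval -0.35 to 0.63). Mutant L3 and WT L33 stood above the rest of their groups. Of 10374 genes edgeR called 0.0% (0 genes; 835 at an unadjusted p under 0.05) and DESeq2 called 220.

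The tissue comparison turned on scaling. By share of all counts, without scaling factors, atf4b took 213 to 260 CPM in WT brains and 33.1 to 48.1 CPM in WT livers, and atf5b 68.2 to 82.6 CPM and 16.2 to 22.8 CPM, without overlap for either gene. With library totals alone the log2 fold change of brain against liver was 2.64 for atf4b and 2.17 for atf5b, where the median of all genes was 2.39. TMM factors computed over both tissues were 1.71 to 1.83 in brain and 0.364 to 0.759 in liver. With them atf4b was 0.57 higher in WT brain (SE 0.20; 133 ± 10.7 against 91.2 ± 19.6 CPM, SD, n = 4 each) and atf5b 0.12 (SE 0.14; 43.2 ± 3.89 against 41.9 ± 6.46 CPM), where the median of all genes was 0.36, 76.1% of 19927 genes were called and 43.1% had every WT brain above every WT liver, as atf4b did. Scaled on the WT libraries alone, the values were 0.21 and -0.18, and the median of all genes was 0.29. Under library totals and under joint TMM scaling atf4b lay above, and atf5b below, the median change of all genes, while on the WT libraries alone both lay below it. The brain levels chose the genes, so no test of this difference is given.

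Of the paralogs, atf5a split sharply between the tissues, and atf4a did not pass the test under joint TMM scaling. atf5a had 972 to 1934 counts in each WT brain and 0 in all 4 WT livers, so with joint TMM scaling it was at least 503.7-fold higher in brain against a floor of 3 counts over the 4 livers; all 11 livers held 2 counts. Under joint TMM scaling atf4a was at 150 ± 9.89 CPM in WT brain against 143 ± 21.1 CPM in WT liver (SD, n = 4 each, edgeR adjusted p = 0.629). This too turned on scaling: with factors computed within each tissue, atf4a ranged from 253 to 291 CPM in WT brains and from 64.3 to 90.0 CPM in WT livers. Around them the pathway differed widely, with ddit3 2.699 (SE 0.41) and phgdh, the first enzyme of serine synthesis, 5.35 (SE 0.49) higher in brain on the log2 scale, and nupr1b, a stress-induced nuclear protein gene, lower (-9.498, SE 0.47; by edgeR the adjusted p-values were 7.36e-06, 8.28e-09 and 1.40e-12). Of 55 ATF4 targets 17 were called higher and 22 lower in brain, beside 44.5% and 31.6% of all genes.

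The level of either gene in a fish's brain told little of its liver. Brain and liver libraries with the same genotype, number and sex were taken as the same fish. The brain values are those from which the genes were chosen, so p-values that rest on them are descriptive. Over 11 fish the log2 CPM of atf4b in brain and liver gave Pearson's r = -0.469 (permutation p = 0.146) and Spearman's rho = -0.555 (p = 0.0828), and those of atf5b r = 0.237 (p = 0.478) and rho = 0.282 (p = 0.402). atf4b and atf5b over the 11 livers gave r = 0.405 (p = 0.221) and rho = 0.464 (p = 0.155). None passed adjustment over the 3 relations (adjusted p = 0.332, 0.478 and 0.332 for r, and 0.233, 0.402 and 0.233 for rho). Without the 2 samples farthest from the median, r was -0.255, 0.322 and 0.207. After removal of genotype means the brain-to-liver r of atf4b was -0.04; the WT brains formed a level of this gene apart from the mutants.

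**Figure D5:**
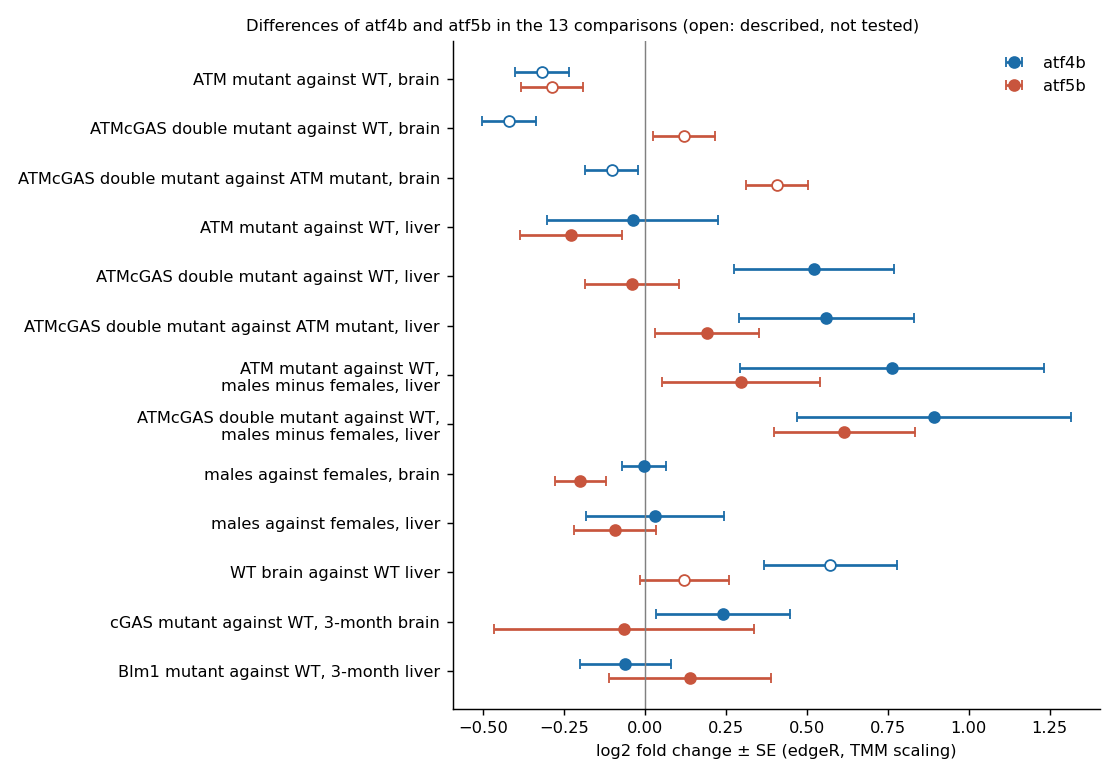
Log2 fold change with its SE of atf4b and atf5b in each of the 13 comparisons (edgeR, TMM scaling); open symbols are genotype contrasts in the 2-month brain and the tissue contrast, given without a test, and the entries with males minus females show the difference of the mutant effect between the sexes. In brain the genes part in the double mutants (-0.42 for atf4b, 0.12 for atf5b), and none of the tested values passed the threshold. The filled symbols for sex in brain rest on the values that chose the genes, so their p-values are descriptive.

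Set on a scale without factors over the 16383 genes common to all tables, atf4b took 334 to 402 CPM in the 2-month and 273 to 276 CPM in the 3-month WT brains, and atf5b 105.5 to 127 CPM and 85.7 to 125 CPM. In WT male livers atf4b took 62.3 and 74.4 CPM at 2 months and 50.2 to 68.0 CPM at 3 months, and atf5b 30.3 and 35.2 CPM and 23.3 to 44.7 CPM. These tables were deposited separately and the fish differ in age, so the values stand side by side and no comparison was made.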

How the data were processed

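The values are whole-number read counts per gene, deposited by the authors in 3 tables: 25099 genes at 2 months and 16383 in each 3-month table, which lack 8716 genes of the first. The mRNA libraries came from the KAPA mRNA HyperPrep kit and were read from a single end, per the labels' protocols. Per the submitters' processing notes, FastQC 0.11.8, Trim Galore 0.6.4, cutadapt 3.4, STAR 2.7.6a and edgeR 3.32.1 were used; the genome build, annotation, strand setting and treatment of shared reads are not given in the sources used here. 37 of 39 samples were used: 1 cGAS mutant library held 0 counts, and 1 ATM mutant liver was not analysed here. Dates stood in place of 8 gene names in the cGAS table and were restored by position. The labels' protocol of the cGAS samples speaks of livers; their tissue field says brain, as do their markers.

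From the deposited counts, edgeR 4.0.16 (TMM, filterByExpr, robust quasi-likelihood test, Benjamini-Hochberg adjustment over all genes of a fit, threshold 0.05) was run in R 4.3.3 per tissue and table, with sex as covariate at 2 months; DESeq2 1.42.0 was the alternative. The main edgeR fit was tested on simulated data for some of the comparisons, and the DESeq2 and alternative fits were not. SEs were taken from the fold change and F statistic, and exact permutation tests were two-sided and without covariates. Correlations used 100000 resamples. Intervals are 1.96 SE wide on each side, a normal approximation that is too narrow for a confidence interval with so few libraries. The alternatives tried were other size factors, library totals alone (added after seeing the data), no filter, DESeq2, leaving out each library, depth range, the replicate number as block, and other sets of libraries or genes.

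Samples were grouped by genotype, tissue, age and sex as labelled. Both genes and all 16 gene lists were chosen with earlier results of these data known. Genes named in the text are both members in each comparison, their paralogs and a fixed set of stress-response genes, up to 3 genes per list past the threshold, and the 5 genes with a symbol most like each member (mean log2 CPM of 1 or more). Some named genes and libraries were singled out after their values were seen: the male 3_m, double mutant 4, WT male 1 and, for contrast, single marker genes.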

Additional observations from a re-analysis of the deposited data

Results flagged for a closer look

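Of 129 groups of 4 or 5 samples (atf4b, atf5b and the pathway genes), 7 held a sample whose gap to its nearest neighbour was large for the range of its group, about the 1 in 20 that chance gives. None concerned atf4b or atf5b themselves. In liver, double mutant 4 stood apart for asns (120 CPM, gap 0.95 of the range), ddit3 (14.5 CPM, gap 0.901) and atf4a (96.3 CPM, gap 0.835), and in brain for cebpb (50.2 CPM, gap 0.876). In the 3-month brains cGAS mutant 3_m stood apart for ddit3 (144 CPM with TMM scaling, gap 0.831; 92.2 CPM without scaling factors). WT male 2 stood apart in brain for eif2ak4 (42.0 CPM, gap 0.849) and psat1 (58.1 CPM, gap 0.935).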

How the results depend on the processing

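Of 408 alternative values for 26 results (both genes in 13 comparisons), 33 had the other sign. Values are log2 fold changes; the cause of a change was not tested. Library totals without scaling factors, a setting added after seeing the data, turned atf4b to 0.234 and atf5b to 0.038 for ATM mutants against WT in liver, atf5b to 0.444 for double mutants against WT in liver, atf4b to -0.301 in the 3-month brains and to 0.013 in the Blm1 livers. They turned atf5b to -0.309 (ATM) and -0.001 (double mutant) for the male minus female difference in liver and to 0.224 for liver sex, and raised its tissue difference to 2.172. Scaling on WT libraries alone took the tissue values to 0.21 and -0.18. Without the filter atf4b in ATM mutant liver was 0.003.

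Split at 25 M counts, the deeper brains gave -0.53 for atf5b in ATM mutants against WT, and 0.068 (atf4b) and 0.712 (atf5b) for double against ATM mutants. The shallower brains gave -0.582 (atf4b) and -0.162 (atf5b) for double mutants against WT, and -0.282 and 0.013 for double against ATM mutants.

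Leaving out 1 library at a time gave -0.178 to 0.146 for atf4b in ATM mutant liver and -0.152 to 0.045 for atf5b in double mutant liver. The male minus female difference of atf4b in double mutant liver ran from 0.391, without double mutant 4, to 1.268, without double mutant 1. The latter leaves double mutant 4 as the lone double mutant male, assumed to vary like the other groups, so its edgeR adjusted p of 0.0263 is no support. Sex gave -0.048 to 0.016 (brain) and -0.169 to 0.159 (liver) for atf4b. The 3-month brains gave -0.577 to 0.625 for atf5b, and the Blm1 livers -0.148 to 0.007 (atf4b) and -0.174 to 0.315 (atf5b). For ATM mutants by sex, no fit was possible without the only ATM mutant male liver.

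Deviations of same-numbered fish of different genotypes correlated between -0.433 and 0.293. Same-numbered WT and ATM mutant fish were of opposite sex, so these correlations cannot decide whether the numbers pair the fish. With the replicate block atf4b in ATM mutant liver was 0.01. The block moved the count of genes called for double mutants against WT in liver from 107 to 0, against ATM mutants from 7 to 0, and in brain from 1 to 0. The liver count of 107 was also 0 with only both groups in the fit, 662 with library totals, 1192 with DESeq2 and 0 to 745 with 1 library left out. DESeq2 called 30 and 25 genes in ATM and double mutant brains where edgeR called 2 and 1, and 642 in the 3-month brains where edgeR called 64.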
